A study of Mus musculus with 50 samples.

Results

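Immediate early genes were followed through 48 mouse sarcomas, namely Fos, Fosb, Jun, Junb, Egr1, Egr2, Atf3, Nr4a1, Nr4a2 and Ier2. These 10 genes were chosen by name, with earlier results of these tumors known and Nr4a1 singled out among them, so tests of Nr4a1 below are not independent evidence about it. All 10 were found among the 37469 genes of the count table and all 10 passed the filter on low counts, which kept 19327 genes. None of them had a count of 0 in any tumor library.

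The tumors were p53/MCA sarcomas of 129/SvJae mice. Primary tumors arose in Trp53 fl/fl mice, 6 to 10 weeks old, whose gastrocnemius was injected with an adenovirus carrying Cre and then with 300 µg of the carcinogen MCA, so each came from its own mouse. Transplant tumors arose in the same muscle of syngeneic mice from 50000 cells of a single line, 402230, itself a p53/MCA sarcoma line. Every group therefore carried the Trp53 deletion in its tumor cells, and the 16 transplants stand for 1 line. At treatment the tumor volume was near 150 mm3 by the sample labels, which is the top of the range in the paper's methods. The mice received 200 µg of the anti-PD-1 antibody muDX400 or an isotype control, followed by 0 or 20 Gy to the hind limb. Tumors were taken 3 days later. There were 8 primary and 4 transplant tumors per treatment, 4 treatments in all, and tumors given 0 Gy and isotype are called untreated here. Tumors of separate mice were the replicates. Because whole tumors were sequenced, more cells of a type and more RNA per cell cannot be told apart.

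Immediate early genes are transcribed within minutes of a growth factor, stress or cytokine signal, without new protein synthesis, because the factors that switch them on (SRF with its ternary complex partners, and CREB) are already present. Fos, Fosb, Jun, Junb and Atf3 encode basic leucine zipper proteins that pair to form AP-1 and related dimers, Egr1 and Egr2 encode zinc finger factors, and Nr4a1 and Nr4a2 encode orphan nuclear receptors that act without a ligand. In T cells Nr4a1 follows antigen receptor signalling, and in macrophages and fibroblasts these genes follow inflammatory and growth signals, so in a whole tumor they are read from many cell types at once.

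Nr4a1 and Nr4a2 were the members that differed most between unirradiated transplant and primary tumors, and the stretches just upstream of their start sites had a feature in common. Promoter windows of the RefSeq set on GRCm38.p6 were searched for 8 of the 10 genes. None was found for Ier2. Egr1 was left out by name before the search, so the counts of windows below say nothing about it. The 250 bases before the start are printed 5′ to 3′ for Nr4a1 and Nr4a2, and for Fos as the classical gene of the class. Capitals mark the core of the cyclic AMP response element (CRE core: TGACG, or CGTCA on the other strand) and the EGR site (GCGNGGGCG, on either strand).
Nr4a1 (chr15:101266596-101266845, plus strand): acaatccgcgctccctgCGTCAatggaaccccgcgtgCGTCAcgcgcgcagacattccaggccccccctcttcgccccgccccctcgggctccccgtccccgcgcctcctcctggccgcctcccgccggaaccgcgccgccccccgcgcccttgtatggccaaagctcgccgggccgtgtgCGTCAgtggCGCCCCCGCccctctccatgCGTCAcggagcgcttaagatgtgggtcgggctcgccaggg
Nr4a2 (chr2:57124004-57124253, minus strand): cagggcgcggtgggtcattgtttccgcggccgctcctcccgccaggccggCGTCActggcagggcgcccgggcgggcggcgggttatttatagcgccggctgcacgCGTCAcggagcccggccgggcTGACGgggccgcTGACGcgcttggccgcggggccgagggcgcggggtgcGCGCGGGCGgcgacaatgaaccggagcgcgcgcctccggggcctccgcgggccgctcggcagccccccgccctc
Fos (chr12:85473640-85473889, plus strand): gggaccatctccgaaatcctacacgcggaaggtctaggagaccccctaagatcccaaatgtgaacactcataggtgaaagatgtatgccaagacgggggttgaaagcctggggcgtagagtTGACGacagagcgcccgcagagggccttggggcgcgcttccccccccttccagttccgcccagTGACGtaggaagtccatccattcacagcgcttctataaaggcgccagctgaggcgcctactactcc
Nr4a1 (gene at chr15:101254269-101274795, GRCm38, plus strand) and Nr4a2 (chr2:57106830-57124003, minus strand) each held 4 CRE cores and 1 EGR site in this window, Fos held 2 CRE cores, Fosb, Junb and Atf3 held 1 each, and Jun and Egr2 held 0. The window of Nr4a3, the remaining gene of the family, also held 4 CRE cores. At least 1 CRE core was found in 17.8% of the 32851 windows of all genes and an EGR site in 4.7%, while 4 or more CRE cores were found in 45 windows, 0.137% of them. The cut of 4 was set from the Nr4a1 window itself, so the shares at this cut are descriptions and no test. Among the 3037 windows with a GC content of 70% or more, to which Nr4a1 (74.4%) and Nr4a2 (80.0%) belong, 0.296% held 4 or more. A CRE core was present in 6 of the 8 windows and an EGR site in 3, those of Fosb, Nr4a1 and Nr4a2. The full response element TGACGTCA (1.55% of all windows), the AP-1 site TGANTCA (6.75%), the Nr4a site AAAGGTCA (1.34%) and the CArG box of SRF (1.47%), all searched on both strands, were found in none of the 8 windows, which says only that these letters are not within those 250 bases. The Nr4a1 window ends at a start that lies 12577 bases into the annotated gene, and like those of Nr4a2 and Fos it touches no annotated exon.

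Levels are given as CPM, the read count of a gene relative to the size of its library after TMM scaling. Divided by the exon length of each gene, the order of the median levels over the 48 tumors ran from Jun (80.8 CPM per kb) and Junb (71.1) through Ier2 (28.6), Egr1 (19.2), Fos (10.3), Atf3 (8.70), Nr4a1 (8.47) and Nr4a2 (5.83) to Egr2 (2.54) and Fosb (1.76). The ranges of neighbours in this order overlapped over the tumors throughout. The spread was unequal: the highest tumor was 35.3 times the lowest for Nr4a1 and 19.3 times for Nr4a2, but 2.88 times for Jun and 3.12 times for Ier2. Reads of Jun and Junb share exon sequence with genes on the opposite strand, Junos and Prdx2, and no source used here says how strand was set when reads were counted, so their counts are less certain.

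Library totals ran from 31810461 to 54008259 reads and the mitochondrial share from 0.371 to 2.71%. Trp53, targeted in every group, was still read at 20.2 to 60.7 CPM, and no library without the deletion was analysed here to set beside it. All 7 mesenchymal, 7 macrophage and 7 T cell markers were read in every tumor library.

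In untreated tumors, Nr4a1 and Nr4a2 were higher in transplants than in primary tumors. Nr4a1 was at 75.9, 142.8, 160 and 313 CPM in the 4 untreated transplants, and at 10.4 to 38.9 CPM with a median of 15.8 in the 8 untreated primary tumors. Every untreated transplant was above every untreated primary tumor. The difference was 8.81-fold, a log2 fold change of 3.14 ± 0.52 (SE, adjusted p = 9.23e-05, edgeR), and its direction and call were kept without any 1 of the 12 libraries (log2 2.69 to 3.39). Nr4a2 was at 81.4, 102.5, 114.6 and 148 CPM in the transplants and at 10.9 to 102.2 CPM with a median of 15.7 in the primary tumors. Here 1 primary tumor, replicate 7, lay within the range of the transplants and the other 7 lay below it at no more than 22.8 CPM. The difference in Nr4a2 was 4.31-fold (log2 2.11 ± 0.56, adjusted p = 0.0114). It missed the threshold without replicate 2 of the transplants (log2 1.94, adjusted p = 0.0507).

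Jun, the AP-1 subunit with the highest level per kb, went the other way. It was at 149, 172, 189 and 236 CPM in untreated transplants and at 216 to 411 CPM with a median of 296 in untreated primary tumors, so 3 of the 4 transplants were below all primary tumors. Jun was 1.65-fold lower in transplants (log2 -0.73 ± 0.22, adjusted p = 0.0279). This call was lost without transplant replicate 1, 2 or 4 or primary replicate 2 or 5 (log2 -0.73 to -0.61, adjusted p 0.0504 to 0.138), with no filter on low counts (adjusted p = 0.0527), and with the library labelled 402230 primary tumor, described last, added to the primary tumors (log2 -0.65, adjusted p = 0.0546). The other 7 members did not pass, with log2 fold changes from -0.59 for Egr1 to 0.52 for Fosb. Thus 3 of 10 members were called, where 10.3% of all genes tested were called in this comparison; DESeq2 and limma voom also called 3 each. Nr4a1 was the only member whose groups did not overlap, as 7.23% of all genes did not.

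**Figure D1:**
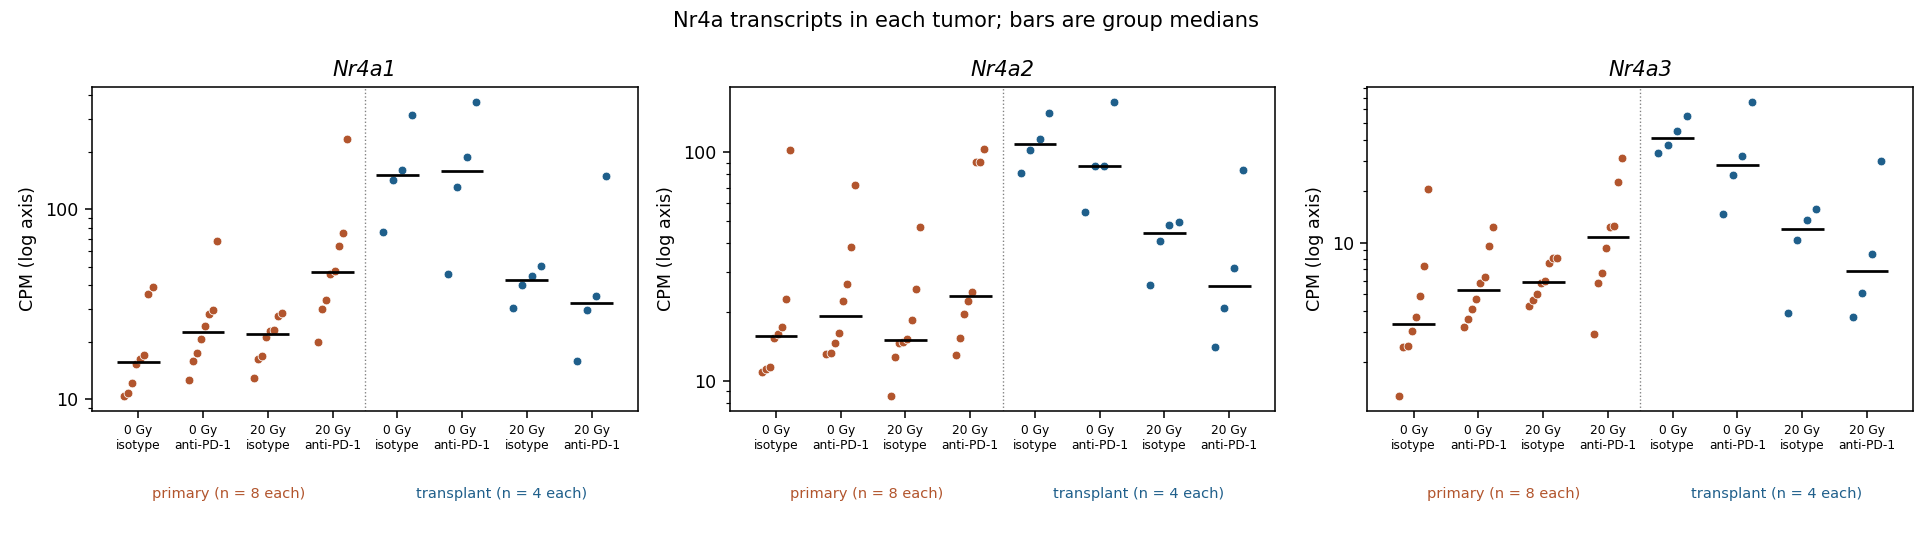
Levels of Nr4a1, Nr4a2 and Nr4a3 in each of the 48 tumors (CPM, log axis) by tumor model, dose and antibody; each point is a tumor and each bar a group median. Untreated transplants lie above untreated primary tumors for Nr4a1, with medians of 152 and 15.8 CPM, and irradiated transplants lie lower, with medians of 42.3 and 32.3 CPM for Nr4a1.

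After anti-PD-1 alone, the same receptors stood out between the models. Nr4a1 was at 45.7, 131.7, 188 and 367 CPM in transplants and at 12.7 to 68.5 CPM with a median of 22.5 in primary tumors, so that 3 of the 4 transplants were above all primary tumors. The log2 fold change was 2.75 ± 0.51 (6.74-fold, adjusted p = 0.00056) and stayed past the threshold without any 1 of the 12 libraries (log2 2.16 to 3.11). Nr4a2 was at 55.0, 86.8, 87.3 and 166 CPM in transplants and at 13.1 to 72.0 CPM with a median of 19.3 in primary tumors. Its log2 fold change was 1.87 ± 0.56 (adjusted p = 0.0312), and the call was lost without any 1 of 7 libraries, namely transplant replicates 1, 3 and 4 and primary replicates 2, 3, 5 and 8 (log2 1.495 to 1.91, adjusted p 0.0550 to 0.147). These were 2 of 10 members, beside 7.35% of all genes.

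After 20 Gy, none of the 10 members passed the test between the models. With isotype, Nr4a1 was at 30.1, 40.1, 44.5 and 50.6 CPM in transplants and at 12.9 to 28.6 CPM with a median of 22.1 in primary tumors. The groups again did not overlap, as 5.58% of all genes did not, but the log2 fold change of 0.97 ± 0.52 did not pass (adjusted p = 0.311). The count was 0 of 10 by edgeR, DESeq2 and limma voom, with 2 members at an unadjusted p under 0.05 in edgeR, beside 4.87% of all genes called. A fit of these 2 groups alone called Nr4a1 (log2 0.92, adjusted p = 0.0275) and Egr2 (log2 -0.98, adjusted p = 0.0288), with no share of all genes recorded for it. After the combination of 20 Gy and anti-PD-1, Nr4a1 was at 15.8, 29.4, 35.2 and 150 CPM in transplants and at 20.0 to 235 CPM with a median of 46.6 in primary tumors. The groups overlapped, and the log2 fold change was -0.26 ± 0.54 (adjusted p = 0.805). There the count was 0 of 10 by edgeR and 1 each by DESeq2 (Egr2) and limma voom (Atf3), with 2 at an unadjusted p under 0.05, beside 6.76% of all genes.

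Averaged over the 4 treatments, which share all libraries with the comparisons above, 5 of 10 members were called, beside 34.8% of all genes. Nr4a1 (log2 1.65 ± 0.26, adjusted p = 2.18e-06), Nr4a2 (1.18 ± 0.28, adjusted p = 0.000964) and Junb (0.39 ± 0.13, adjusted p = 0.0146) were higher in transplants. Egr2, a zinc finger factor also known from myeloid cells and Schwann cells, was lower (log2 -0.72 ± 0.17, adjusted p = 0.000914), and Jun was lower (-0.29 ± 0.11, adjusted p = 0.0304). The Jun call was lost without any 1 of 7 transplants, replicates 2 and 4 of the untreated, 1 and 3 of the anti-PD-1, 3 of the 20 Gy and 2 and 3 of the combination group (adjusted p 0.0527 to 0.0740), and with the skeletal muscle markers as a covariate (log2 -0.24, adjusted p = 0.0842). Fosb (log2 0.53, adjusted p = 0.0504) and Atf3 (0.49, adjusted p = 0.0515) did not pass, and their side of the threshold turned on the setting. Atf3 was called by limma voom (log2 0.58, adjusted p = 0.0146) and without any 1 of 10 of the 48 libraries (log2 0.50 to 0.57). Fosb was called with the muscle covariate (log2 0.62, adjusted p = 0.0244), and both with the library labelled 402230 cell line added to the primary tumors (adjusted p = 0.0478 for Fosb and 0.0436 for Atf3). The median log2 fold change of the members was 0.35 and that of all genes tested -0.0025.

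Markers of other cells differed between the models beside these results, and their part in them was not tested. Over the 4 treatments 15.7% of all genes tested were called higher and 19.1% lower in transplants. Of the 7 T cell markers, 6 were higher in transplants in this comparison. The summed level of the 7 ran from 43.7 to 101.7 CPM in untreated transplants and from 14.5 to 63.3 CPM in untreated primary tumors. Of the 7 mesenchymal markers, 6 were lower in transplants. Of the 5 adipose markers, 2 were higher, with a sum of 28.0 to 198 CPM in untreated transplants and 6.38 to 62.9 CPM in untreated primary tumors. Adipoq, Plin1 and Lep were each at 0 in at least 1 untreated primary tumor. Adipoq, Cidec and Lep were each at 0 in at least 1 untreated transplant. Neither skeletal muscle (0 of 9) nor B cell markers (0 of 5) passed, though muscle markers summed to 76.4 to 19717 CPM in untreated transplants and 62.3 to 5676 CPM in untreated primary tumors. Counts for the macrophage, neutrophil, endothelial, nerve and red blood cell markers in this comparison are not given here.

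**Figure D2:**
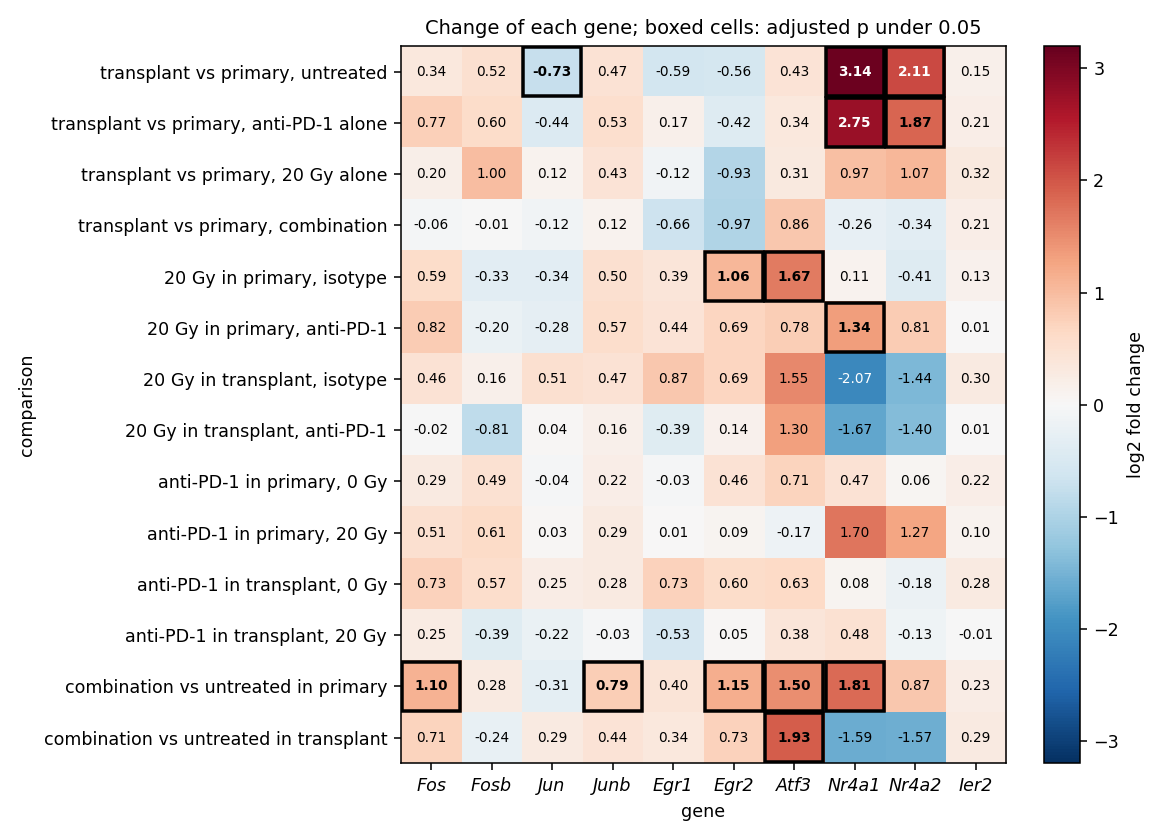
Log2 fold change of the 10 genes in 14 comparisons of groups from the edgeR fit, red for higher and blue for lower in the group named first, or after the named treatment; boxes mark an adjusted p under 0.05. Nr4a1 and Nr4a2 are boxed between the unirradiated models (log2 3.14 and 2.11 in untreated tumors), and Atf3, Egr2, Fos, Junb and Nr4a1 between primary tumors given the combination and untreated ones.

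Radiation of primary tumors was followed 3 days later by higher Atf3 and Egr2. Atf3, a stress-induced factor and a target of ATF4 and p53 signalling, was at 18.4 to 44.3 CPM with a median of 26.1 after 20 Gy with isotype, and at 3.55 to 16.3 CPM with a median of 6.92 in untreated primary tumors. The groups did not overlap, as 1.86% of all genes did not, and Atf3 was 3.17-fold higher (log2 1.67 ± 0.34, adjusted p = 0.000471). Egr2 was at 8.44 to 20.6 CPM with a median of 14.1 after 20 Gy and at 3.37 to 15.4 CPM with a median of 4.56 in untreated tumors. It was 2.09-fold higher (log2 1.06 ± 0.27, adjusted p = 0.00498), with overlapping groups. Both calls held without any 1 of the 16 libraries. Nr4a1 was at 12.9 to 28.6 CPM after 20 Gy against 10.4 to 38.9 CPM in untreated tumors (log2 0.11 ± 0.43, adjusted p = 0.890). Junb did not pass (log2 0.50 ± 0.21, adjusted p = 0.0855), although DESeq2 (adjusted p = 0.0465) and limma voom (adjusted p = 0.0490) called it. The count was 2 of 10, beside 18.3% of all genes.

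With anti-PD-1 given as well, Nr4a1 was the member called after 20 Gy in primary tumors. It was at 20.0 to 235 CPM with a median of 46.6 after 20 Gy and anti-PD-1, against 12.7 to 68.5 CPM with a median of 22.5 after anti-PD-1 alone. The log2 fold change was 1.34 ± 0.44 (2.54-fold, adjusted p = 0.0405). A single tumor, replicate 2 of the combination group, was at 235 CPM, the next at 75.5 CPM, and without it the log2 fold change was 0.74 (adjusted p = 0.231). The call was lost without any 1 of 9 of the 16 libraries, replicates 1, 2, 3, 5, 6, 7 and 8 given anti-PD-1 alone and replicates 2 and 4 given the combination (adjusted p 0.0559 to 0.231), and limma voom did not make it (adjusted p = 0.0901). Atf3 (log2 0.78 ± 0.33, adjusted p = 0.117) and Egr2 (0.69 ± 0.27, adjusted p = 0.0895) did not pass here, although limma voom called Egr2 (adjusted p = 0.0372). The count was 1 of 10, beside 11.2% of all genes.

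Over both antibodies, 4 of 10 members rose in primary tumors after 20 Gy, beside 31% of all genes called in either direction and 16.8% called higher. They were Atf3 (log2 1.22 ± 0.24, adjusted p = 0.000107), Egr2 (0.88 ± 0.19, adjusted p = 0.000524), Junb (0.54 ± 0.15, adjusted p = 0.00496) and Fos (0.71 ± 0.24, adjusted p = 0.0197). All 4 were called without any 1 of the 32 libraries. Fos, the partner of Jun proteins in AP-1, was at 12.7 to 42.1 CPM after 20 Gy with isotype, against 7.39 to 31.8 CPM in untreated primary tumors. After the combination Fos was at 15.9 to 53.6 CPM, against 8.93 to 47.8 CPM after anti-PD-1 alone. Junb was at 131.99 to 190 CPM after 20 Gy with isotype, against 51.7 to 176 CPM in untreated primary tumors. After the combination Junb was at 125.2 to 266 CPM, against 68.7 to 193 CPM after anti-PD-1 alone. The groups of each pair overlapped. Jun (log2 -0.31 ± 0.12, adjusted p = 0.0508) and Nr4a1 (0.72 ± 0.31, adjusted p = 0.0681) did not pass in edgeR. Jun was called by limma voom (adjusted p = 0.0475) and without any 1 of 8 libraries. Nr4a1 was called by DESeq2 (adjusted p = 0.0472) and without any 1 of 4 libraries, while without replicate 2 of the combination group its log2 fold change was 0.43 (adjusted p = 0.246). The median log2 fold change of the members was 0.48, against 0.0037 over all genes tested.

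The combination set against untreated primary tumors, sharing libraries with the comparisons above, had 5 of 10 members higher, beside 18.8% of all genes called and 11.4% called higher. Nr4a1 was 3.51-fold higher (log2 1.81 ± 0.45, adjusted p = 0.00381), and without the tumor at 235 CPM the log2 fold change was 1.22 (adjusted p = 0.0300). Atf3 (log2 1.496 ± 0.34, adjusted p = 0.00158), Egr2 (1.15 ± 0.27, adjusted p = 0.00265), Fos (1.10 ± 0.33, adjusted p = 0.0175) and Junb (0.79 ± 0.21, adjusted p = 0.00686) were the others. DESeq2 and limma voom called 5 each as well.

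**Figure D3:**
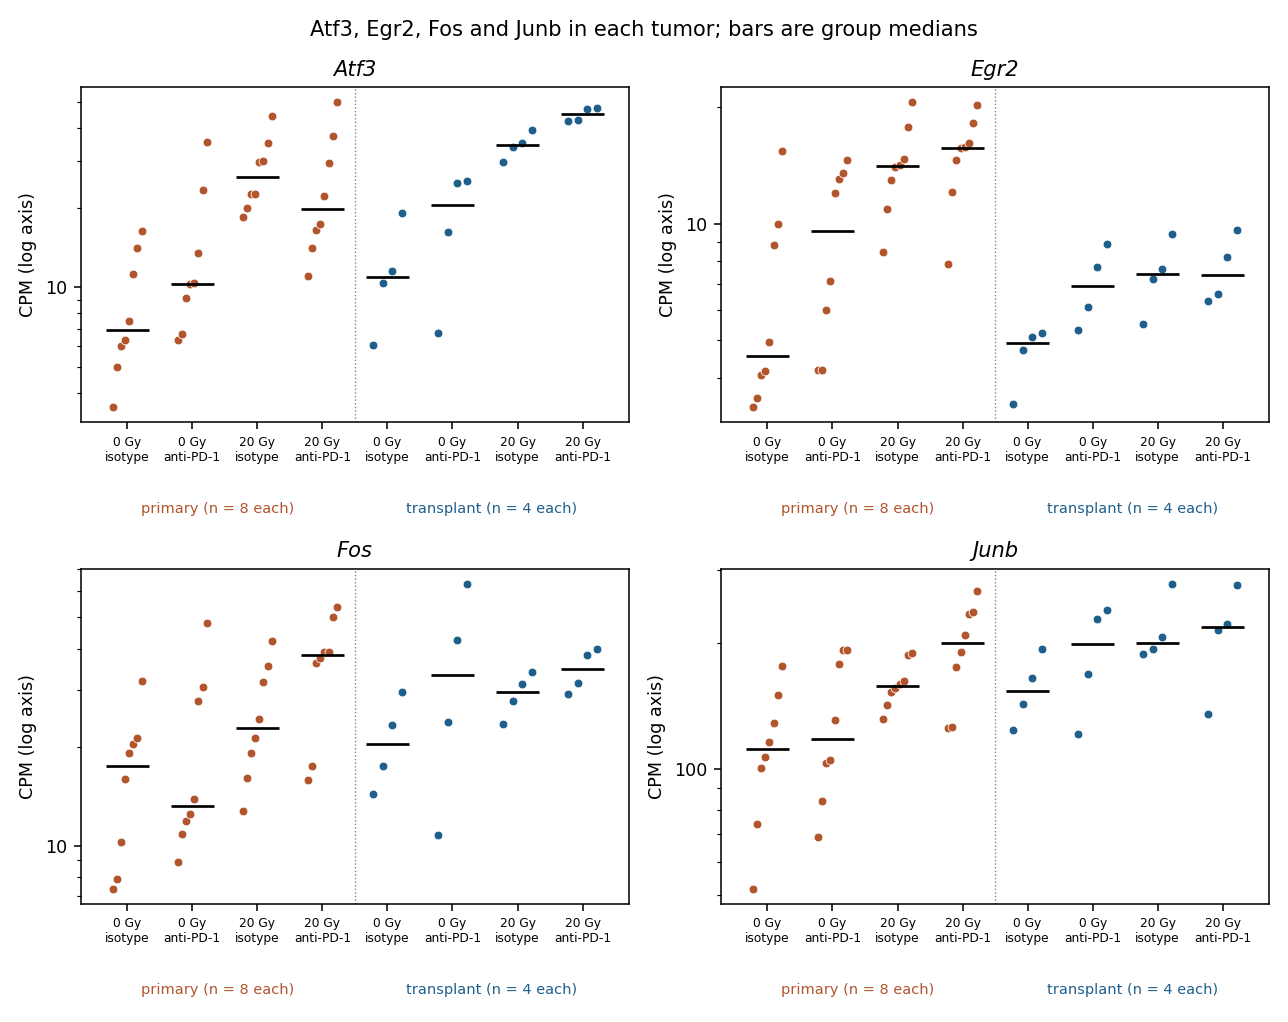
Levels of Atf3, Egr2, Fos and Junb in each tumor (CPM, log axis) by model, dose and antibody; points are tumors and bars group medians. For Atf3 the median of each irradiated group lies above that of the unirradiated group of the same model and antibody. These medians are 19.7 to 44.8 CPM against 6.92 to 20.5 CPM without radiation. In primary tumors given anti-PD-1 the irradiated and unirradiated tumors overlap.

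In irradiated transplants Atf3 lay higher and the Nr4a receptors lower than in unirradiated ones, but with 4 tumors a group no member passed the test within either antibody arm. Atf3 was at 29.7, 33.9, 35.0 and 39.3 CPM after 20 Gy with isotype and at 6.10, 10.4, 11.6 and 19.0 CPM in untreated transplants, with no overlap. The log2 fold change of 1.55 ± 0.48 missed the threshold (adjusted p = 0.0806), while DESeq2 (0.0376) and limma voom (0.0305) called it. After anti-PD-1, Atf3 was at 42.5, 42.6, 47.1 and 47.5 CPM with 20 Gy and at 6.76, 16.2, 24.7 and 25.1 CPM without, again with no overlap (log2 1.30 ± 0.47, adjusted p = 0.184). Between these anti-PD-1 groups 8.87% of all genes did not overlap. Nr4a1 in the isotype transplants was at 30.1 to 50.6 CPM after 20 Gy against 75.9 to 313 CPM, without overlap, for a log2 fold change of -2.07 ± 0.64 (adjusted p = 0.0806; DESeq2 0.0320). Nr4a2 was at 26.3, 40.8, 47.97 and 49.4 CPM against 81.4 to 148 CPM (log2 -1.44 ± 0.68, adjusted p = 0.375). The count called was 0 of 10 by edgeR, beside 1.92% of all genes, and 2 by DESeq2 and 1 by limma voom, with 4 at an unadjusted p under 0.05. By the other measure, no overlap between these isotype groups, 6 members were apart, Jun, Egr1, Egr2, Atf3, Nr4a1 and Nr4a2, where 13.5% of all genes tested were apart. A fit of these 2 groups alone called 4, namely Egr1, Atf3, Nr4a1 and Nr4a2. The share of all genes called in that fit was not recorded.

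With anti-PD-1, Nr4a1 in transplants was at 15.8, 29.4, 35.2 and 150 CPM after 20 Gy and at 45.7, 131.7, 188 and 367 CPM without (log2 -1.67 ± 0.63, adjusted p = 0.203). The tumor at 150 CPM, replicate 4, was inside the range of the unirradiated group and the other 3 were below it. The count was 0 of 10 by edgeR and DESeq2 and 1 by limma voom (Atf3), with 3 at an unadjusted p under 0.05, beside 0.595% of all genes. The comparison averaged over both antibodies is given as a description only, since Nr4a1 was among the 5 largest decreases there (the fourth) and the set of genes was chosen with that known. There Nr4a1 fell by 1.87 on the log2 scale, Nr4a2 by 1.42, and Atf3 was 1.43 higher, and 7.23% of all genes were called. It is the mean of the per-antibody comparisons in transplants and the transplant side of the interaction given below. The p-values of Nr4a1 in those are therefore no independent support for its decrease.

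Transplants given the combination, set against untreated ones, had 1 of 10 members called, Atf3 at 3.81-fold (log2 1.93 ± 0.48, adjusted p = 0.0125), beside 4.41% of all genes. This call was lost without untreated replicate 1, 2 or 4 (log2 1.71 to 1.92, adjusted p 0.0536 to 0.0821). Nr4a1 had a log2 fold change of -1.59 ± 0.63 (adjusted p = 0.161), which became -2.69 (adjusted p = 0.0134) without replicate 4 of the combination group.

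The change after 20 Gy was then compared between the models directly. The transplant side of this interaction is the averaged comparison described above without a test, so the p-values of Nr4a1 here are descriptive. For Nr4a1 the interaction was -2.59 ± 0.54 on the log2 scale and just missed the threshold (adjusted p = 0.0552), where 0.0259% of all genes were called. DESeq2 (adjusted p = 0.00237) and limma voom (0.0301) called it. It also passed without any 1 of 7 of the 48 libraries: transplant anti-PD-1 replicate 2, transplant combination replicate 4, primary untreated replicates 3 and 7, primary anti-PD-1 replicate 4, and primary combination replicates 1 and 6 (log2 -3.14 to -2.63, adjusted p 0.00868 to 0.0465). The interaction of Nr4a2 was -1.62 ± 0.58 (adjusted p = 0.351) and that of Atf3 0.20 ± 0.40 (adjusted p = 0.943), and edgeR called 0 of 10 members, with 3 at an unadjusted p under 0.05, while DESeq2 and limma voom called Nr4a1 alone.

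Cell type markers moved with radiation as well, and their part in the members' changes was not tested. In primary tumors over both antibodies, 5 of 6 neutrophil, 5 of 7 macrophage and 8 of 9 skeletal muscle markers rose, beside 16.8% of all genes. None of 7 T cell markers passed, and 2 of 7 mesenchymal markers fell, beside 14.2% of all genes. The neutrophil markers summed to 103.8 to 2036 CPM in untreated primary tumors (median 237) and 143.9 to 844 CPM after 20 Gy with isotype (median 225). They summed to 68.9 to 505 CPM after anti-PD-1 alone (median 259) and 136.7 to 2372 CPM after the combination (median 703). Median sums of muscle markers were 1634 CPM untreated and 1238 CPM after 20 Gy with isotype, with a highest tumor of 44810 CPM in the latter. After anti-PD-1 alone and the combination they were 1203 and 1671 CPM, with a highest tumor of 76748 CPM in the latter. In the isotype arm neither median sum rose. None of these markers was at 0 in any of these libraries. In transplants, macrophage markers summed to 1364 to 2085 CPM untreated and 2403 to 3644 CPM after 20 Gy with isotype.

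None of the 10 members passed the test for anti-PD-1 within a model at either dose. In primary tumors at 0 Gy the count was 0 of 10 by edgeR, DESeq2 and limma voom, with 1 at an unadjusted p under 0.05, beside 0% of all genes. At 20 Gy the antibody comparison in primary tumors gave Nr4a1 a log2 fold change of 1.70 ± 0.45 (adjusted p = 0.194) and Nr4a2 1.27 ± 0.48 (adjusted p = 0.401), again beside 0% of all genes. There edgeR and limma voom called 0, DESeq2 called 1 (Nr4a1, adjusted p = 0.0410), and 2 had an unadjusted p under 0.05. Without the tumor at 235 CPM the log2 fold change of Nr4a1 was 1.09 (adjusted p = 0.385). In transplants the count was 0 of 10 at each dose by the 3 tools, with 0 at an unadjusted p under 0.05, although Egr2 at 0 Gy (5.31, 6.09, 7.73 and 8.85 CPM against 3.43 to 5.22 CPM) and Atf3 at 20 Gy did not overlap between antibodies. Of all genes tested, 0.745% at 0 Gy and 1.56% at 20 Gy did not overlap there. Averaged over doses, 0 of 10 were called by the 3 tools in either model, with 2 in primary tumors and 0 in transplants at an unadjusted p under 0.05, beside 0.0155% and 0% of all genes. The interaction of anti-PD-1 with the model called 0 of 10 by the 3 tools, with 0 at an unadjusted p under 0.05, and that for Nr4a1 was -0.81 ± 0.53.

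Egr1, Fosb and Ier2 were called in none of the 21 comparisons by edgeR. Egr1, the zinc finger factor that often stands as the readout of ERK signalling, had group medians from 70.7 CPM in untreated transplants to 122.2 CPM in transplants given 20 Gy and isotype, and a smallest adjusted p of 0.212. Its untreated transplants were at 51.1, 63.0, 78.5 and 79.3 CPM and its irradiated isotype transplants at 83.8, 117.5, 126.9 and 167 CPM, without overlap, and a log2 fold change of 0.87 ± 0.51 (adjusted p = 0.539). Ier2, a nuclear protein of the early response, varied least after Jun, with group medians from 37.8 to 56.2 CPM and log2 fold changes from -0.03 to 0.32 in all comparisons. The 8 primary tumors given 20 Gy and isotype lay within 41.0 to 46.5 CPM for Ier2. Fosb, a partner of Jun proteins like Fos, came closest to a call between the models over the 4 treatments (adjusted p = 0.0504), and was called there without any 1 of 12 of the 48 libraries (log2 0.55 to 0.65).

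Further genes of the same response were followed by list. Their counts stand beside the shares of all genes tested: 16.8% rose and 14.2% fell in irradiated primary tumors over both antibodies, 4.13% rose in transplants given the combination against untreated ones, and over the 4 treatments 15.7% passed as higher and 19.1% as lower in the transplants. Among 11 relatives of AP-1, Egr and Nr4a genes, Nr4a3 was higher in transplants that had not been irradiated (log2 2.90 in untreated tumors and 2.48 after anti-PD-1). It was at 33.6, 37.3, 44.95 and 55.1 CPM in untreated transplants and at 1.27 to 20.6 CPM in untreated primary tumors, without overlap. After 20 Gy it was at 3.89, 10.3, 13.6 and 15.8 CPM in isotype transplants. In irradiated primary tumors over both antibodies, 4 of the 11 rose, Egr4 (log2 1.53), Batf (1.23), Batf3 (0.94) and Mafk (0.55), and 0 fell. In transplants given the combination, set against untreated ones, 2 rose, Batf (1.70) and Mafk (0.80). Of 27 other immediate early genes, 10 rose and 0 fell in irradiated primary tumors, led by Csrnp1 (log2 1.10), Ier3 (1.07), Arc (0.90), Cebpb (0.80) and Gadd45b (0.80), with a list median of 0.20. In the transplants of the combination 4 of 27 rose, Klf2 (1.06), Csrnp1 (1.03), Ier5 (0.98) and Klf6 (0.95), and 0 fell. Between the models over the 4 treatments, 3 of the 27 were higher and 10 lower in transplants.

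Feedback genes encode proteins that end the response, among them phosphatases, ubiquitin editors and RNA-binding proteins. Of 16 such genes, 6 rose and 0 fell in irradiated primary tumors. The 5 largest were Tnfaip3 (log2 1.28), Socs3 (1.10), Zfp36 (0.96), Nfkbia (0.68) and Dusp1 (0.54). In the transplants of the combination 3 rose, Zfp36 (1.04), Tnfaip3 (0.98) and Nfkbia (0.90). Between the models over the 4 treatments, 5 feedback genes were higher and 5 lower in transplants, with Dusp2 (1.16) and Spry2 (-1.01) changing most. Of 8 genes of the integrated stress response, which share regulation with Atf3, 3 rose in irradiated primary tumors (Ddit3 0.72, Sesn2 0.59, Ppp1r15a 0.38) and 2 in the transplants of the combination (Ddit3 1.47, Sesn2 1.10). Between the models, however, 6 of these 8 were lower in transplants and 0 higher, led by Trib3 (-1.86), Asns (-1.53) and Ddit3 (-1.43), while Atf3 itself had a log2 fold change of 0.49 that did not pass in edgeR. Of 8 heat shock genes, which encode chaperones, 0 rose and 1 fell in irradiated primary tumors (Hspd1, log2 -0.35), and 3 were lower in transplants over the 4 treatments, Hspa1a (-1.47), Hspa1b (-1.20) and Hspd1 (-0.28). Of 16 upstream kinases and transcription factors, 2 rose and 3 fell in irradiated primary tumors, and 2 were higher and 1 lower in transplants over the 4 treatments. That is 5 and 3 of 16, beside 31% and 34.8% of all genes called.

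Over the 48 tumors, 35 of the 45 pairs of members had a positive correlation of log2 CPM, and for 21 pairs the permutation p of Pearson's r, adjusted over the 45 pairs, was under 0.05, of which 20 were positive. The permutations ignored the 8 groups, so shifts shared by the tumors of a group enter these p-values. With each group centred, 42 of the 45 were positive, and the centred values were not tested. Nr4a1 and Nr4a2 were the closest pair, with r = 0.83 and rho = 0.77 (permutation p = 1e-05 each, the smallest that 100000 permutations give; adjusted p = 0.000112), and r = 0.79 without the 2 tumors farthest from the median of Nr4a1. Because the models differ in both genes, the values within each are given as well, r = 0.63 over the 32 primary tumors and 0.96 over the 16 transplants, with 0.64 after centring each group. Among the other members, high values were found for Junb with Ier2 (r = 0.82, rho = 0.85, permutation p = 1e-05 each, adjusted p = 0.000112, 0.79 without the 2 farthest tumors, 0.76 in primary tumors, 0.93 in transplants) and for Fos with Junb (r = 0.77, rho = 0.76, permutation p = 1e-05 each, adjusted p = 0.000112, 0.74 without the 2 farthest tumors, 0.78 in primary tumors, 0.70 in transplants). Nr4a1 was also correlated with Fos (r = 0.496, rho = 0.496, permutation p = 0.00032 and 0.00034, adjusted p = 0.0016 and 0.00153, 0.45 without the 2 farthest tumors), with 0.62 in primary tumors, 0.20 in transplants and 0.55 with groups centred. For Nr4a1 with Junb the values were r = 0.465 and rho = 0.54 (permutation p = 0.00102 and 9e-05, adjusted p = 0.00328 and 0.000506, 0.47 without the 2 farthest tumors), with 0.49 in primary tumors, 0.045 in transplants and 0.39 with groups centred. The negative pair was Egr2 with Nr4a2 (r = -0.33, rho = -0.32, permutation p = 0.0222 and 0.0259, adjusted p = 0.0476 and 0.0507), with r = -0.33 without the 2 farthest tumors, -0.11 in primary tumors and -0.33 in transplants. All these values come from libraries that share the scaling.

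**Figure D4:**
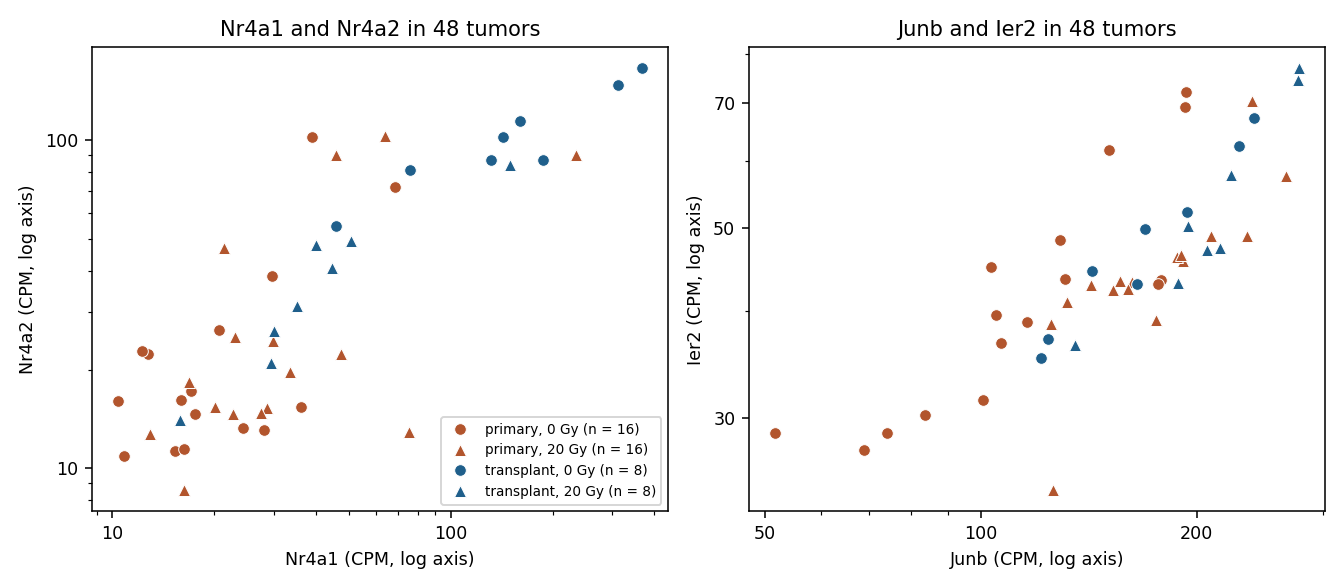
Nr4a2 against Nr4a1 (left) and Ier2 against Junb (right) in the 48 tumors (CPM, log axes), coloured by model, with circles for 0 Gy and triangles for 20 Gy. Both pairs rise together, with r = 0.83 and 0.82 on log2 CPM, and unirradiated transplants fill the upper right of the Nr4a panel.

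Outside the set, the 10 genes most like Nr4a1 by Pearson's r of log2 CPM over the 48 tumors were Nr4a3 (0.89), Ipmk (0.87), Kcnk10 (0.78), Gbe1 (0.76), Pde4d (0.76), Txnrd1 (0.76), Ptgs2 (0.75), Inhba (0.74), Gsr (0.73) and Tmem117 (0.73). They were picked for these values out of all genes tested, so no test is given. With each group centred, Nr4a3 (0.75) and Ipmk (0.69) stayed highest among the 10. The others ran from 0.41 for Tmem117 to 0.62 for Ptgs2, so part of their r lay between the groups. Kcnk10 was near the floor in primary tumors, with a median of 0.41 CPM over the 32. The 10 genes most like the mean log2 CPM of the members were Lif (0.82), Il11 (0.78), Socs3 (0.76), Cblb (0.76), Has1 (0.76), Ereg (0.74), Bcl3 (0.73), Cebpb (0.72), Ier3 (0.72) and Clcf1 (0.72). Lif, Il11 and Clcf1 encode cytokines of the interleukin-6 family and Socs3 encodes their feedback inhibitor.

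The remaining libraries, 2 in number and without replicates, carry the labels of line 402230. One is labelled a primary tumor and the other a cultured line. Their marker genes went against both labels. The library labelled primary tumor had 0 reads of the 7 T cell markers in 48457411 reads (a count of 0 allows up to 3 reads), and its 7 macrophage markers summed to 3.75 CPM. The library labelled cell line had all 7 T cell markers (12.5 CPM in sum), macrophage markers at 1030 CPM, endothelial markers at 349 CPM and red blood cell markers at 187 CPM. In untreated primary tumors, on the same scaling over 50 libraries, macrophage markers summed to 1481 to 2790 CPM. Heat shock genes summed to 4107 CPM in the library labelled primary tumor and to 1416 CPM in the other, against 1503 to 1858 CPM in untreated primary tumors. The libraries are called by their labels here, and no direction between a tumor and its cell line is drawn from them.

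Nr4a1 was high in both libraries. It was at 80.5 CPM in the library labelled primary tumor and at 89.8 CPM in the library labelled cell line, both above the 8 untreated primary tumors (10.0 to 39.2 CPM) and inside the range of the untreated transplants (75.7 to 306 CPM). Nr4a2 was at 61.3 and 133.7 CPM, and Nr4a3 at 0.773 CPM (34 reads) in the library labelled primary tumor and 19.8 CPM in the other. Fosb was at 71.0 CPM in the library labelled primary tumor, above every tumor (at most 50.3 CPM), and at 10.6 CPM in the other. Jun (171 and 109.3 CPM), Junb (43.8 and 32.96 CPM) and Egr2 (2.68 CPM in both) were below the untreated primary tumors in both libraries. With the library labelled cell line added to the untreated primary tumors, the higher Nr4a1 of untreated transplants was still called, but Nr4a2 (log2 1.54, adjusted p = 0.0937) and Jun (-0.62, adjusted p = 0.104) were not.

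**Figure D5:**
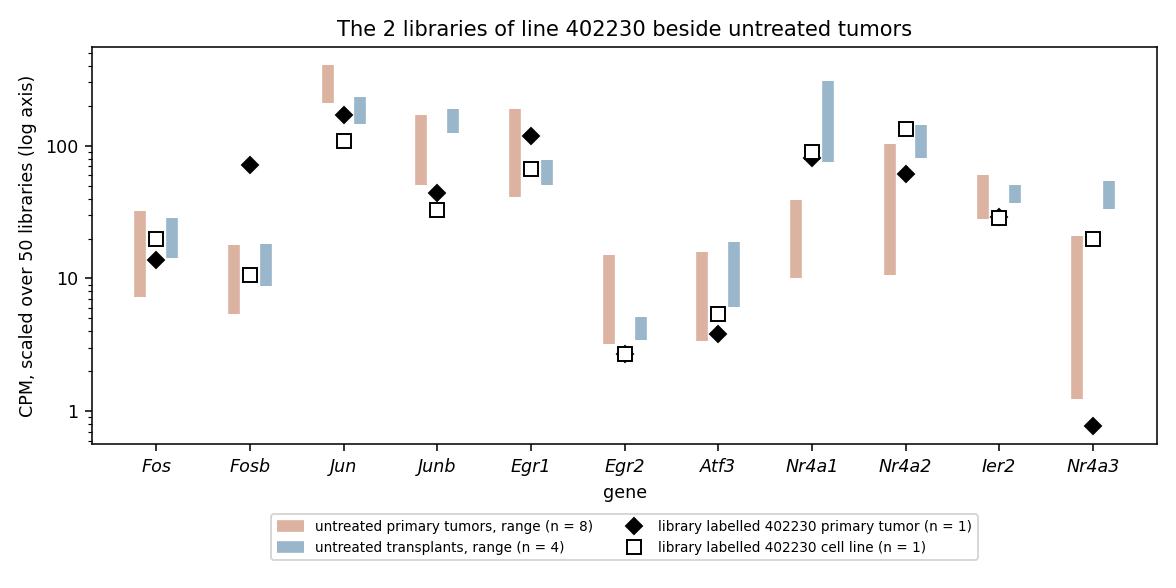
Levels of the 10 genes and Nr4a3 in the 2 libraries of line 402230 (CPM scaled over 50 libraries, log axis), beside the ranges of untreated primary tumors (n = 8) and untreated transplants (n = 4). Nr4a1 is at 80.5 and 89.8 CPM, above the range of untreated primary tumors, and Fosb is at 71.0 CPM in the library labelled primary tumor.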

How the data were processed

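RNA of 48 whole tumors and 2 libraries of line 402230 was measured by bulk sequencing. As the labels and methods describe, the authors prepared stranded oligo-dT libraries from RNA of integrity number above 7. Reads were trimmed (Trimmomatic 0.36), aligned to mm10 by STAR and counted per GENCODE M17 gene by HTSeq rules; the labels give STAR as 5.5.4b. The deposited counts are raw whole numbers, and the strand setting was not given in the sources used here. Of 37469 identifiers 37408 matched a symbol in GENCODE M21.

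The counts were filtered with filterByExpr by group and scaled by TMM, and the 48 tumors entered 1 edgeR 4.0.16 quasi-likelihood fit with a mean for each of 8 groups (R 4.3.3). Two-sided p-values were adjusted by Benjamini-Hochberg over the 19327 genes tested, with a threshold of 0.05. Log2 CPM used a prior count of 2. Every share of all genes called comes from this fit. No such share was recorded for the alternatives named next, so their counts of members called have no background beside them. The authors tested with DESeq2; here DESeq2 1.42.0 and limma 3.58.1 (voom) were alternatives, along with RLE scaling, no filter, fits of the compared groups alone, a skeletal muscle covariate, added 402230 libraries and leaving out each library. The test was tried on simulated counts. No 2 libraries of a group differed as little as sampling noise gives (lowest chi-square per degree of freedom 85.6 over 136 pairs). Correlations used 100000 permutations. Promoters came from RefSeq.

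The members and lists were chosen with earlier results of these data known. Named were all members, up to 5 called genes per list with the largest change, and the 10 genes most like Nr4a1 or the members' mean. A comparison in which Nr4a1 was among the 5 largest increases or decreases of called genes with an average log2 CPM of at least 2 was taken as used to choose the members, and was described without a test.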

Additional observations from a re-analysis of the deposited data

Results flagged for a closer look

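Within-group gaps were examined for 10 genes in 8 groups. In 4 of the 80 gene and group pairs the highest or lowest library stood apart from the rest by more than Dixon's limit, and chance gives about 1 in 20. Fosb accounted for 3 of the 4. Among untreated transplants, replicate 4 was low at 8.81 CPM, against 16.7 to 18.6 CPM in the other 3 (gap 0.858 of the range on the log2 scale). Among transplants given anti-PD-1, replicate 4 was high at 51.6 CPM, against 12.5 to 13.8 CPM (gap 0.93). Among primary tumors given anti-PD-1, replicate 5 was high at 44.6 CPM, against 7.21 to 16.1 CPM (gap 0.56). Nr4a2 was high in replicate 7 of the untreated primary tumors at 102.2 CPM, against 10.9 to 22.8 CPM in the other 7 (gap 0.671).

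In the libraries of line 402230, which entered no main comparison, 4 values lay above the untreated primary tumors. They were Nr4a1 in the library labelled primary tumor (80.5 CPM) and in the library labelled cell line (89.8 CPM), Nr4a2 in the library labelled cell line (133.7 CPM) and Fosb in the library labelled primary tumor (71.0 CPM), the last also above the untreated transplants. The cause was not tested, and the markers of both libraries went against their labels.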

How the results depend on the processing

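Across all alternatives other than leaving out libraries, 310 values of named members counted as unchanged, 28 passed the threshold and 10 fell short of it. No tested value changed direction. The 310 hold tested values that stayed on their side of the threshold. They also hold values of the untested comparison of 20 Gy in transplants averaged over antibodies. Those counted as unchanged when within 1 pooled within-group standard deviation of the main value. The number of members called moved by over 1.5 times as follows. Between untreated models 3 became 1 with the library labelled 402230 cell line added to the primary tumors, and after anti-PD-1 alone 2 became 1 with no filter. After 20 Gy alone 0 became 2 in a fit of those groups alone, and after the combination 0 became 1 in limma voom and 1 in DESeq2. For 20 Gy in primary tumors with anti-PD-1, 1 became 0 with no filter, 0 with the groups alone and 2 in DESeq2. For 20 Gy in transplants with isotype, 0 became 4 with the groups alone, 1 in limma voom and 2 in DESeq2, and with anti-PD-1 0 became 1 in limma voom. For anti-PD-1 in primary tumors at 20 Gy, 0 became 1 in DESeq2. For the combination in transplants 1 became 2 in limma voom, and for the interaction of 20 Gy with the model 0 became 1 in limma voom and 1 in DESeq2. Smaller shifts were 3 to 2 between untreated models with no filter or the library labelled 402230 primary tumor added, 5 to 6 over the 4 treatments in limma voom or with the library labelled cell line, 2 to 3 for 20 Gy in primary tumors with isotype in both other tools or with either added library, and 4 to 5 over both antibodies in both other tools. The cause of these shifts was not tested. The correlation of Nr4a1 with Nr4a2 was 0.638 centred per group, 0.629 in primary tumors and 0.957 in transplants. All of these lay outside the 95% interval of the main r, 0.713 to 0.901, and counted as moved. Without TMM the correlation was 0.831, inside that interval. Without TMM, Nr4a1 in the library labelled cell line was at 100.8 CPM.

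With 1 library left out at a time, the number called ran from 1 to 3 between untreated models, 1 to 2 after anti-PD-1 alone, 4 to 7 over the 4 treatments, 2 to 3 and 0 to 2 for 20 Gy in primary tumors with isotype and anti-PD-1, 4 to 6 over both, 0 to 1 for 20 Gy in transplants with either antibody, 5 to 6 and 0 to 2 for the combination in primary tumors and transplants, and 0 to 1 for the interaction. It stayed 0 after 20 Gy alone, after the combination between models, and in the comparisons of antibodies. The decrease of Nr4a1 in irradiated transplants over both antibodies ran from -2.42 to -1.57. Leaving out primary libraries, adding the library labelled cell line and dropping TMM were chosen after seeing the data. No paired analysis was possible because the labels carry no replicate numbers shared between groups. A miss of the threshold does not show that levels were alike.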
